A study of Mus musculus with 12 samples.

Results

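Gene expression in the extensor digitorum longus (EDL), which lifts the toes and is built of fast fibres, was compared between sedentary mice labelled strNrip1-/- and sedentary controls, called Ctrl in the sample labels and WT here, as in the deposited table. The comparison uses 6 of the 12 RNA-seq libraries of the series, 3 per group, chosen by their genotype and training labels, and the other 6 come from trained mice. Per the study's methods, the animals were males of 8 weeks of age when the others began 8 weeks of voluntary wheel running. The sedentary groups were kept without it over the same period, and the muscle was taken after that period. Mice with loxP-flanked Nrip1 alleles (C57BL/6J) had been crossed with C57BL/6JN mice in which the muscle creatine kinase (MCK) promoter drives Cre, active in skeletal muscle and heart, and the controls were Cre-negative littermates. Whole muscle was sequenced, including cells in which Nrip1 was not targeted. In such bulk RNA, fewer cells of a type and less RNA per cell cannot be told apart. Each library is taken as 1 replicate, and because no label ties a library to its own animal, p-values measure the spread between libraries.

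Nrip1 encodes RIP140, a corepressor that binds ligand-activated and orphan nuclear receptors, among them the peroxisome proliferator-activated receptors (PPARs) and the estrogen-related receptors (ERRs). In muscle these receptors drive genes of fat oxidation, the citric acid cycle and the respiratory chain, and RIP140 is most abundant in fast glycolytic muscle. EDL of the mouse consists mainly of fast glycolytic fibres, which rest on glycogen, phosphocreatine and fast calcium cycling, whereas oxidative fibres burn fat in many mitochondria.

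The targeted gene went against its labels. Nrip1 was at 3.60, 2.55 and 3.84 FPKM in labelled WT and 15.5, 16.3 and 14.9 FPKM in labelled strNrip1-/- libraries, given here and below in the order of replicates 1 to 3 (log2 fold change 2.08, SE 0.198, limma adjusted p = 2.77e-04). It was higher in every labelled strNrip1-/- library, although the floxed exon holds the whole coding sequence. In the GENCODE M21 annotation 3 of 8 Nrip1 transcripts share no base with that exon, so a gene-level value can also contain RNA that the deletion leaves in place, and transcript-level values were not analysed here. Every direction below therefore rests on the labels.

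The depth of these libraries, estimated from the spacing of low values, was 20.1 M to 25.9 M fragments, and 3 fragments on a gene of 2 kb equalled 0.0579 to 0.0748 FPKM (by name, fragments per kilobase of transcript and per 1e6 mapped fragments). The estimate is the number of mapped fragments only if the deposited values were scaled to that number, which is not given. This limit covers counting error only. The genes that define fast muscle were abundant in all 6 libraries, with the fast troponin gene Tnnt3 at 28149, 30846 and 26969 FPKM in labelled WT and 24649, 30610.4 and 21217 FPKM in labelled strNrip1-/- libraries, although all 9 had negative differences, with a median log2 fold change of -0.35 (-0.23 without labelled strNrip1-/- replicate 3). A gene was called when limma's adjusted p, on log2(FPKM + 0.5), was under 0.05 and its fold above 1.2. By this rule 447 of 12744 genes tested (3.51%) differed, 245 higher (1.92%) and 202 lower (1.59%) in labelled strNrip1-/- libraries. The split followed the scale: 54.8% of calls were higher on the deposited scale, 18.6% of 652 once all libraries had been given the same FPKM sum and 82.7% of 480 when only nuclear genes were summed, while these scalings shifted the median of all genes by −0.14 and 0.071 on the log2 scale. All 447 kept their sign under both scalings and under quantile normalization. Leaving out each of the 12 libraries in turn, 140 calls (31.3%) held every time, 95 higher and 45 lower. Where a gene described below with its values lost its call in such a fit, the library left out and the adjusted p are given. The count was 163 without labelled WT sedentary replicate 1, 222 without labelled WT sedentary replicate 2, 216 without labelled WT sedentary replicate 3 and 260 without labelled strNrip1-/- sedentary replicate 1. The values of the groups did not overlap in any called gene, against 20.7% of all genes tested.

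**Figure D1:**
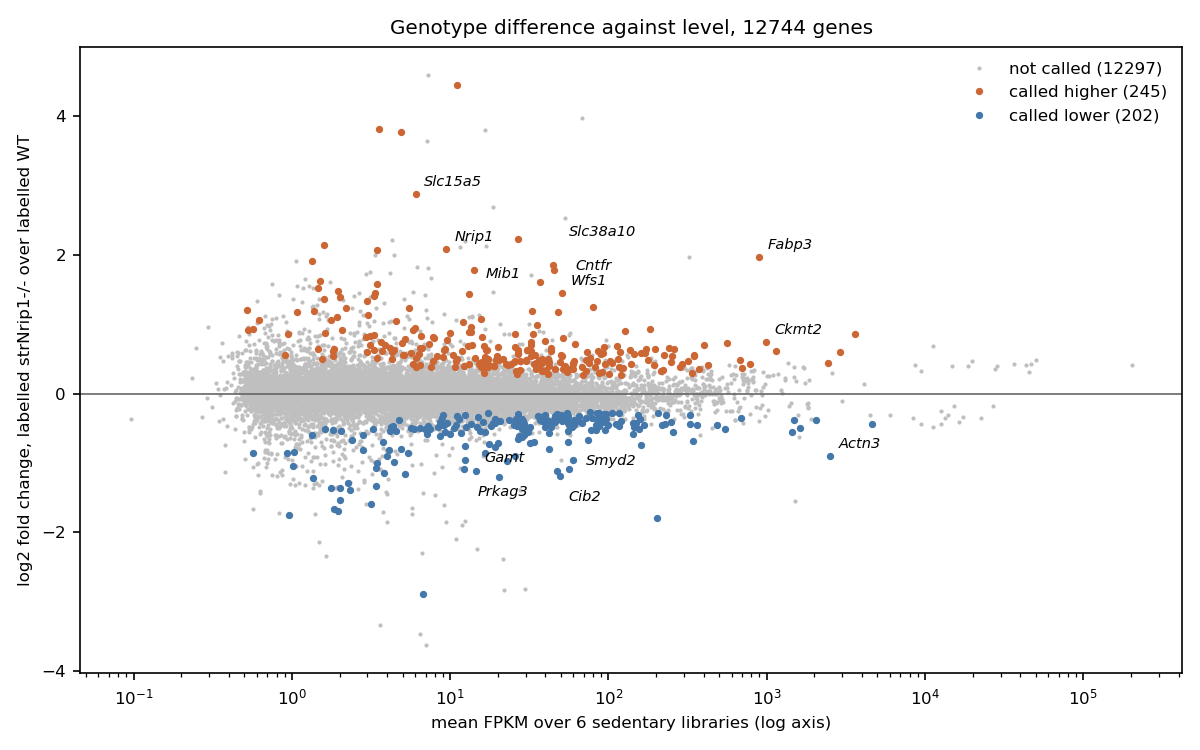
Log2 fold change between labelled genotypes in sedentary EDL (vertical axis) against the mean FPKM of the 6 libraries (log axis), with 1 point per gene for 12744 genes. Called genes (245 higher, 202 lower) are spread over low and high levels, and Fabp3, with a log2 fold change of 1.97, stands out among abundant genes.

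**Figure D2:**
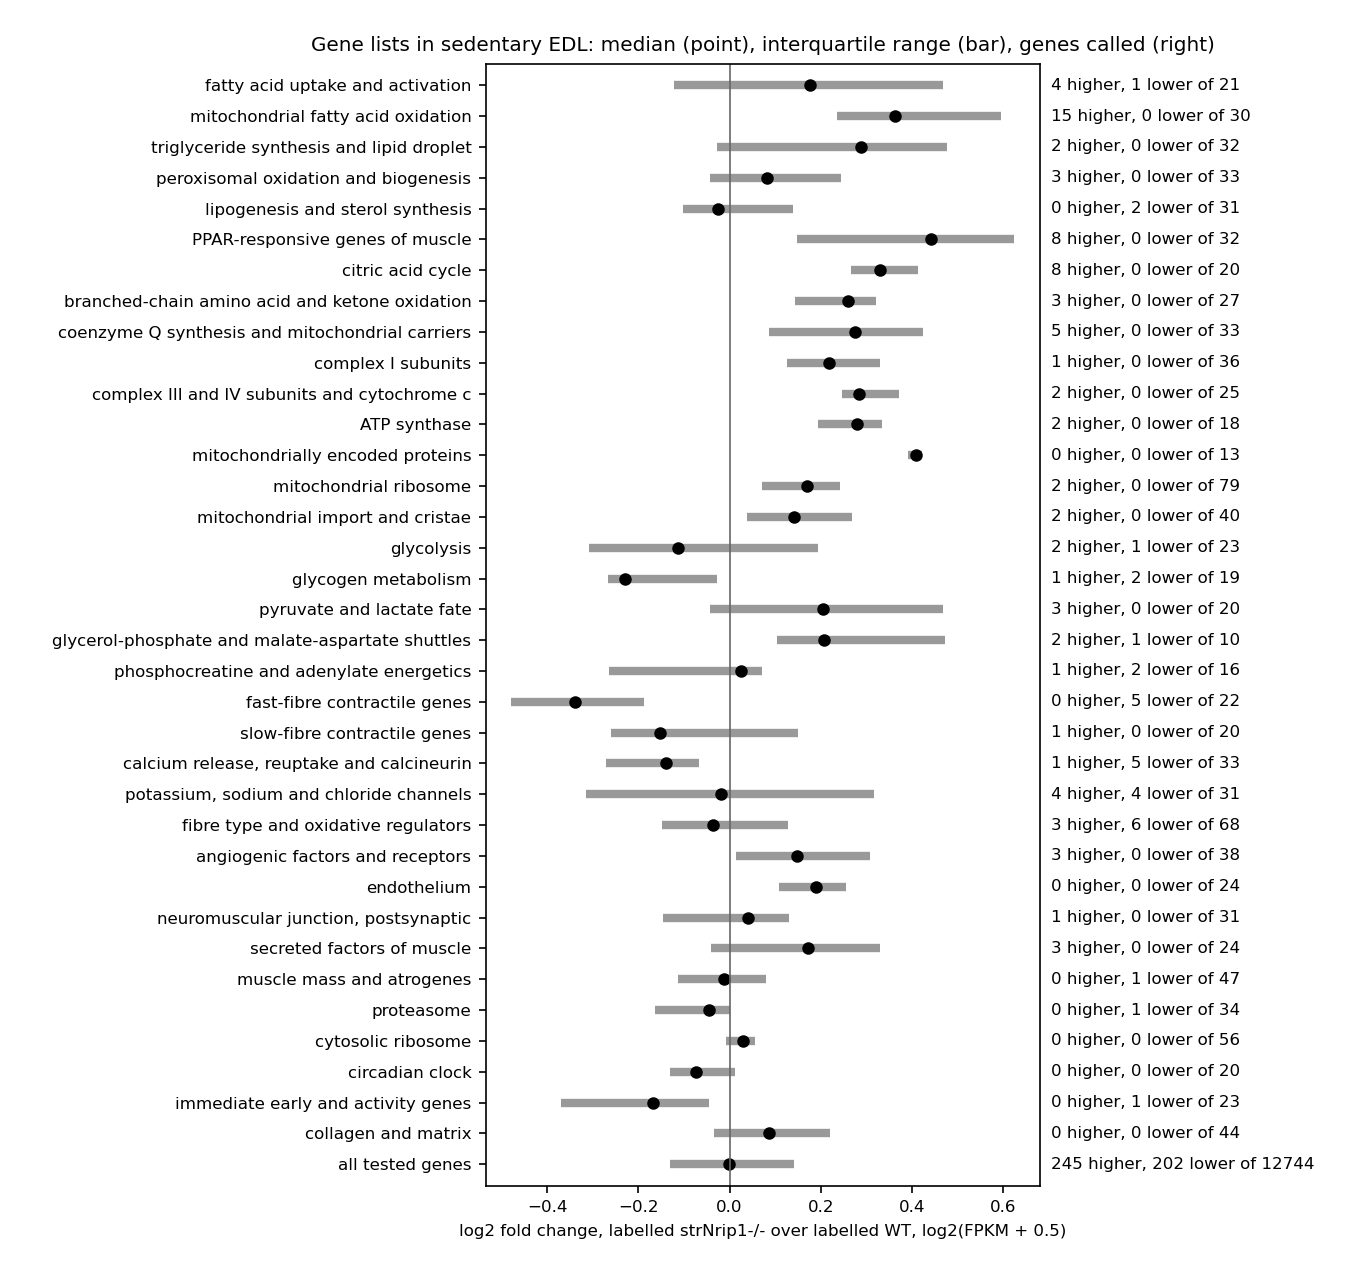
Median log2 fold change (point) and interquartile range (bar) of 35 gene lists and of all tested genes, with the number of members called at the right. Fat oxidation, the citric acid cycle, the respiratory chain and PPAR-responsive genes lie to the right of 0, and fast-fibre, glycogen, calcium and immediate early genes to the left.

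Fatty acids are a main fuel of oxidative fibres. Of 30 genes of mitochondrial fatty acid oxidation, 15 were called higher and none lower, against 3.51% called among all genes, and all 30 had a positive difference, with a median log2 fold change of 0.36 against -0.0010 over all genes. Of 21 genes of uptake and activation 4 were higher and 1 was lower, 13 had a positive difference and the median was 0.18. Among 32 genes that respond to PPARs in muscle, many of them shared with these lists, 8 were higher and none lower, with a median of 0.44.

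At the entry, Cd36, the fatty acid translocase of the cell membrane, was at 62.6, 77.7 and 77.7 FPKM in labelled WT and 107, 115 and 125 FPKM in labelled strNrip1-/- libraries (log2 fold change 0.67, SE 0.113, limma adjusted p = 0.00891). Fabp3, the fatty acid carrier of heart and oxidative muscle, was at 325, 409.6 and 362 FPKM in labelled WT and 1312, 1586 and 1399.9 FPKM in labelled strNrip1-/- libraries (log2 fold change 1.97, SE 0.139, limma adjusted p = 4.54e-05). Its linear fold of 3.92 was the largest rise among called genes whose higher group averaged over 100 FPKM, and every labelled strNrip1-/- library exceeded the highest labelled WT library more than 3-fold. Acsl1, the main acyl-CoA synthetase of muscle, rose from 72.5 ± 3.97 to 108 ± 14.6 FPKM (mean ± SD, n = 3 each, log2 fold change 0.56, SE 0.113, limma adjusted p = 0.0208), while Acsl3, a synthetase tied to lipid droplet formation, fell from 6.12 ± 2.05 to 2.74 ± 0.247 FPKM (log2 fold change -0.99, SE 0.216, limma adjusted p = 0.0300). Lipoprotein lipase (Lpl) was not called, with a difference of 0.47 (limma adjusted p = 0.145). Acsl1 was not called without labelled WT replicate 1, 2 or 3 (limma adjusted p = 0.0933, 0.0644 and 0.0559) or labelled strNrip1-/- replicate 2 or 3 (0.0527 and 0.0562). Acsl3 was not called without labelled WT replicate 2 or 3 (limma adjusted p = 0.0923 and 0.0857) or labelled strNrip1-/- replicate 1, 2 or 3 (0.0936, 0.0792 and 0.0544).

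Fatty acids enter mitochondria as carnitine esters. Cpt1b, the muscle form of the rate-limiting transferase of the outer membrane, was at 122, 125 and 121 FPKM in labelled WT and 142, 126 and 141 FPKM in labelled strNrip1-/- libraries, with 1 labelled strNrip1-/- library at the labelled WT level (log2 fold change 0.15, SE 0.0687, limma adjusted p = 0.303), and was not called. The steps that follow it were called. Slc25a20, the carnitine-acylcarnitine translocase, was at 42.3, 48.0 and 49.9 FPKM in labelled WT and 81.8, 72.6 and 76.0 FPKM in labelled strNrip1-/- libraries (log2 fold change 0.71, SE 0.103, limma adjusted p = 0.00395). Cpt2, which re-forms the acyl-CoA inside, was at 22.6, 24.5 and 24.6 FPKM in labelled WT and 38.1, 37.8 and 35.9 FPKM in labelled strNrip1-/- libraries (log2 fold change 0.63, SE 0.0770, limma adjusted p = 0.00135). No labelled WT library of either gene reached the lowest labelled strNrip1-/- library. For each reaction of the β-oxidation spiral at least 1 enzyme rose. Acadl, a long-chain acyl-CoA dehydrogenase, was at 136, 162 and 168 FPKM in labelled WT and 249.7, 244 and 229 FPKM in labelled strNrip1-/- libraries (log2 fold change 0.64, SE 0.102, limma adjusted p = 0.00710), and the medium-chain enzyme Acadm rose from 182 ± 16.9 to 269 ± 25.1 FPKM (log2 fold change 0.56, SE 0.103, limma adjusted p = 0.0137). Hadha and Hadhb, the subunits of the trifunctional protein, lie head to head 86 bases apart on chromosome 5. Hadha was at 129.9, 143 and 133 FPKM in labelled WT and 223, 199 and 214 FPKM in labelled strNrip1-/- libraries (log2 fold change 0.65, SE 0.0921, limma adjusted p = 0.00344). Hadhb was at 172, 197 and 194 FPKM in labelled WT and 307, 297 and 286 FPKM in labelled strNrip1-/- libraries (log2 fold change 0.66, SE 0.0798, limma adjusted p = 0.00124), nearly the same difference. The thiolase Acaa2 was at 96.7, 111 and 115 FPKM in labelled WT and 171, 172 and 154 FPKM in labelled strNrip1-/- libraries (log2 fold change 0.62, SE 0.0976, limma adjusted p = 0.00625).

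Electrons from this spiral pass through the electron transfer flavoprotein to coenzyme Q. Its subunit gene Etfa was at 177, 221 and 208 FPKM in labelled WT and 325, 345 and 281 FPKM in labelled strNrip1-/- libraries (log2 fold change 0.65, SE 0.105, limma adjusted p = 0.00712), and Etfdh, the dehydrogenase that hands them on, was at 54.6, 59.9 and 60.01 FPKM in labelled WT and 90.0, 87.3 and 89.0 FPKM in labelled strNrip1-/- libraries (log2 fold change 0.61, SE 0.0682, limma adjusted p = 9.08e-04). Both were higher in all 3 labelled strNrip1-/- libraries. Acadm was not called without labelled WT replicate 1 or 3 (limma adjusted p = 0.0682 and 0.0567) or labelled strNrip1-/- replicate 1 (0.0513).

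**Figure D3:**
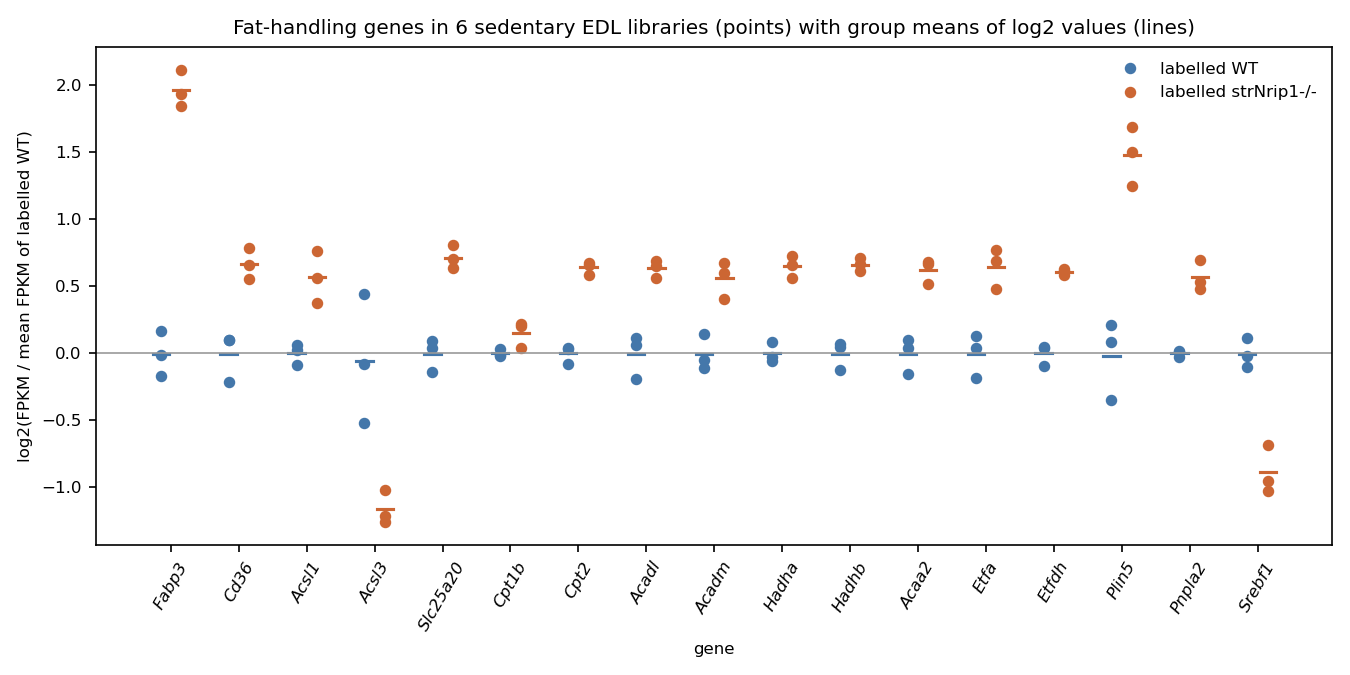
FPKM of 17 fat-handling genes in each sedentary library, as the log2 ratio to the labelled WT mean, with lines at group means. The labelled strNrip1-/- points of Fabp3 lie near 2 and those of the β-oxidation genes between about 0.4 and 0.8, whereas the points of Cpt1b nearly meet and those of Acsl3 and Srebf1 lie below 0.

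Genes of fat storage and synthesis had few calls in number, at 6.25 to 9.09% of each list against 3.51% of all genes. Of 32 genes of triglyceride synthesis and the lipid droplet, 2 were higher and none lower, with a median of 0.29. That median was 0.17 without labelled strNrip1-/- replicate 3, 0.18 without labelled WT replicate 1 and 0.16 over members with a mean of at least 5 FPKM. Plin5, a droplet coat protein of oxidative tissue, was at 5.45, 8.03 and 7.37 FPKM in labelled WT and 16.5, 22.3 and 19.7 FPKM in labelled strNrip1-/- libraries (log2 fold change 1.43, SE 0.254, limma adjusted p = 0.0115), and the triglyceride lipase Pnpla2 rose from 117 ± 1.96 to 174 ± 14.03 FPKM (log2 fold change 0.57, SE 0.113, limma adjusted p = 0.0198). Dgat2, which makes triglyceride, had groups that did not overlap but missed the threshold at 0.86 (limma adjusted p = 0.0528). In peroxisomes, 3 of 33 genes were higher, among them Phyh, of phytanic acid oxidation, from 148 ± 8.38 to 208 ± 11.2 FPKM (log2 fold change 0.49, SE 0.0868, limma adjusted p = 0.0118). In synthesis, none of 31 genes of lipogenesis and sterol synthesis was higher and 2 were lower, with a median of -0.026 that ran from -0.10 to 0.042 as single libraries were left out. Srebf1, the transcription factor that drives lipogenic genes, was at 23.4, 21.3 and 20.1 FPKM in labelled WT and 13.4, 11.2 and 10.6 FPKM in labelled strNrip1-/- libraries (log2 fold change -0.86, SE 0.123, limma adjusted p = 0.00359), every labelled strNrip1-/- library lying below every labelled WT library. Pdk4, the kinase that closes pyruvate dehydrogenase, ran over 43.0, 24.8 and 55.8 FPKM in labelled WT and 54.5, 68.4 and 94.0 FPKM in labelled strNrip1-/- libraries, overlapping groups with a difference of 0.84 (limma adjusted p = 0.463). Ucp3, a mitochondrial carrier of muscle, had a difference of 0.31 (limma adjusted p = 0.791). Plin5 was not called without labelled WT replicate 1 (limma adjusted p = 0.0594). Pnpla2 was not called without labelled WT replicate 1, 2 or 3 (limma adjusted p = 0.0829, 0.0641 and 0.0644) or labelled strNrip1-/- replicate 2 (0.0620). Phyh was not called without labelled WT replicate 1 (limma adjusted p = 0.0623).

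Adipocyte markers were high in part of the libraries. Of 12 adipocyte markers 11 had a positive difference, with a median of 0.93, and none was called higher. Their summed level was 645, 518 and 418 FPKM in labelled WT and 374, 339 and 493 FPKM in labelled strNrip1-/- libraries, a sum set largely by Fabp4, which endothelium also makes, and by Car3, which muscle also makes and which was the 1 marker called lower. Adipoq, secreted by fat cells, was at 3.23, 1.72 and 0.791 FPKM in labelled WT and 3.59, 3.10 and 10.3 FPKM in labelled strNrip1-/- libraries, and Cfd was at 16.8, 19.2 and 7.83 FPKM in labelled WT and 32.7, 35.3 and 82.0 FPKM in labelled strNrip1-/- libraries, highest for both in labelled strNrip1-/- replicate 3. The marker median was 0.28 without that library. Of the genes described above, Cd36, Acsl1, Lpl, Dgat2, Pdk4 and Ucp3 were also highest in that library, as were 7 of 21 genes of uptake and activation, 13 of 32 of triglyceride synthesis and the lipid droplet and 5 of 30 of fatty acid oxidation. The call of Acsl1 was lost without it and those of Cd36, Fabp3, Cpt2, Hadhb and Etfdh held. The part of fat cells in the genes of fat use and storage was not tested.

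In the citric acid cycle, which completes the oxidation of fuels, 8 of 20 genes were higher and none lower, with 19 of 20 positive and a median of 0.33. Ogdh, of the 2-oxoglutarate dehydrogenase complex, was at 267, 266 and 271 FPKM in labelled WT and 395, 349 and 369 FPKM in labelled strNrip1-/- libraries (log2 fold change 0.47, SE 0.0613, limma adjusted p = 0.00198). Suclg2, the GTP-forming subunit of succinate-CoA ligase, was at 27.5, 28.0 and 28.1 FPKM in labelled WT and 44.1, 40.7 and 39.1 FPKM in labelled strNrip1-/- libraries (log2 fold change 0.56, SE 0.0689, limma adjusted p = 0.00141). The labelled WT libraries of both genes lay within a few percent of each other and all below the other group. Citrate synthase (Cs), the usual index of mitochondrial content, had a smaller difference of 0.22 (limma adjusted p = 0.127) and was not called.

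Other fuels also feed the cycle. Of 27 genes of branched-chain amino acid and ketone oxidation 3 were higher, none was lower and 24 were positive, with a median of 0.26. Oxct1, which activates ketone bodies, was at 138, 132 and 138 FPKM in labelled WT and 187, 216 and 211 FPKM in labelled strNrip1-/- libraries (log2 fold change 0.58, SE 0.0787, limma adjusted p = 0.00237). Bckdha, of the branched-chain ketoacid dehydrogenase, was at 69.8, 78.5 and 72.1 FPKM in labelled WT and 118, 118 and 95.3 FPKM in labelled strNrip1-/- libraries (log2 fold change 0.58, SE 0.0928, limma adjusted p = 0.00691), and the valine pathway enzyme Hibch rose from 21.5 ± 1.67 to 29.9 ± 0.579 FPKM (log2 fold change 0.47, SE 0.0759, limma adjusted p = 0.00740). All 3 kept their calls when any 1 library was left out, while in a fit of the 6 sedentary libraries alone Bckdha and Hibch did not (limma adjusted p = 0.0565 and 0.0544).

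The respiratory chain showed broad, small differences of which few passed the test. The called share was 2.78% in complex I, 8.0% in complexes III and IV with cytochrome c and 11.1% in ATP synthase. It was 3.51% over all genes. One subunit of 36 in complex I, 2 of 25 in complexes III and IV with cytochrome c and 2 of 18 in ATP synthase were higher and none was lower, while 33, 25 and 17 members were positive, with medians of 0.22, 0.28 and 0.28. Without labelled strNrip1-/- sedentary replicate 2, in which these genes were highest, the medians were 0.029, 0.11 and 0.12, and that of complex I was 0.36 without labelled strNrip1-/- replicate 3. Cox5a of complex IV was at 850.0, 965 and 872 FPKM in labelled WT and 1310.2, 1631 and 1215 FPKM in labelled strNrip1-/- libraries (log2 fold change 0.62, SE 0.123, limma adjusted p = 0.0198), and Atp5a1, the catalytic-core α subunit of ATP synthase, at 537, 585 and 559 FPKM in labelled WT and 829, 814 and 717 FPKM in labelled strNrip1-/- libraries (log2 fold change 0.49, SE 0.0825, limma adjusted p = 0.00920). Coenzyme Q carries electrons between these complexes, and its synthesis list, which includes mitochondrial carriers, had 5 of 33 genes higher, none lower and a median of 0.28. Coq8a, an atypical kinase of coenzyme Q synthesis, was at 383, 475 and 416 FPKM in labelled WT and 806, 713 and 598 FPKM in labelled strNrip1-/- libraries (log2 fold change 0.73, SE 0.110, limma adjusted p = 0.00496). Coq6, a hydroxylase of the same pathway, rose from 13.1 ± 1.64 to 20.6 ± 3.22 FPKM (log2 fold change 0.63, SE 0.120, limma adjusted p = 0.0166). Cox5a was not called without labelled WT replicate 1 or 3 (limma adjusted p = 0.0896 and 0.0743). Atp5a1 was not called without labelled WT replicate 1 (limma adjusted p = 0.0533). Coq6 was not called without labelled WT replicate 1 (limma adjusted p = 0.0721) or labelled strNrip1-/- replicate 1 or 2 (0.0619 and 0.0527).

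Proteins encoded in the mitochondrial genome are the partners of these nuclear subunits. All 13 had positive differences, between 0.32 and 0.68 with a median of 0.41, and none was called by limma, while 13 had an unadjusted p under 0.05. The complex I gene mt-Nd2 was at 15292, 18309.9 and 16159 FPKM in labelled WT and 23077, 26003 and 19880.3 FPKM in labelled strNrip1-/- libraries, groups that did not overlap (log2 fold change 0.47, SE 0.140, limma adjusted p = 0.107). Their median was 0.15 under quantile normalization and -0.028 in the trained libraries. The share of FPKM from mitochondrial transcripts was 42.2, 44.6 and 44.5% in labelled WT and 52.8, 51.2 and 52.8% in labelled strNrip1-/- libraries (exact two-sided permutation p = 0.1, the smallest that 3 against 3 libraries allow). By construction, a larger share leaves less of a fixed FPKM sum to nuclear genes.

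Genes of mitochondrial protein synthesis and import had medians of 0.17 for 79 mitochondrial ribosome genes (2 higher, none lower), 0.14 for 40 import and cristae genes (2 higher) and 0.16 for 28 genes of mitochondrial DNA replication and transcription (1 higher). As single libraries were left out, the first of these ran from 0.046 to 0.25 and the import and cristae median from 0.079 to 0.20, both lowest without labelled strNrip1-/- replicate 2. The called shares of these lists were 2.53%, 5.0% and 3.57%, in that order, against 3.51% of all genes. Mrps2 of the small subunit was at 6.65, 6.48 and 6.83 FPKM in labelled WT and 9.56, 10.1 and 10.2 FPKM in labelled strNrip1-/- libraries (log2 fold change 0.54, SE 0.0704, limma adjusted p = 0.00187), and the chaperonin Hspd1 at 103, 105 and 107 FPKM in labelled WT and 133, 139.8 and 136 FPKM in labelled strNrip1-/- libraries (log2 fold change 0.37, SE 0.0577, limma adjusted p = 0.00601). Mfn1, which fuses outer membranes, was at 86.6, 92.0 and 91.0 FPKM in labelled WT and 119.8, 124 and 121 FPKM in labelled strNrip1-/- libraries (log2 fold change 0.44, SE 0.0607, limma adjusted p = 0.00300). The mitochondrial chaperone Hspa9 rose from 167 ± 6.37 to 221 ± 7.63 FPKM (log2 fold change 0.41, SE 0.0711, limma adjusted p = 0.0101). Of 56 cytosolic ribosome genes limma called none (0 with an unadjusted p under 0.05), and their median was 0.029. That median ran from -0.13 to 0.14 as single libraries were left out, also lowest without labelled strNrip1-/- replicate 2. Hspa9 was not called without labelled WT replicate 1 (limma adjusted p = 0.0574).

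Several called mitochondrial genes lay outside the lists and were chosen after their values were seen. Uqcc1, an assembly factor of complex III, was at 83.3, 90.3 and 87.6 FPKM in labelled WT and 136, 147 and 136 FPKM in labelled strNrip1-/- libraries (log2 fold change 0.68, SE 0.0731, limma adjusted p = 7.10e-04). Cox11, a copper-dependent assembly factor of complex IV, was at 23.6, 26.8 and 22.9 FPKM in labelled WT and 37.7, 48.4 and 35.2 FPKM in labelled strNrip1-/- libraries (log2 fold change 0.70, SE 0.117, limma adjusted p = 0.00827). The mitochondrial phosphatase gene Pptc7 was at 34.2, 32.0 and 34.5 FPKM in labelled WT and 50.5, 51.7 and 57.1 FPKM in labelled strNrip1-/- libraries (log2 fold change 0.65, SE 0.0711, limma adjusted p = 7.61e-04). Cluh, which binds mRNAs of mitochondrial proteins, Ptcd3 of the mitochondrial ribosome, the transporter Abcb8, Rmdn1 and Nmnat3, of mitochondrial NAD synthesis, rose by 0.50, 0.48, 0.48, 0.62 and 0.39 on the log2 scale, with limma adjusted p between 0.00198 and 0.00819. All of these calls held in every fit with 1 library left out, but Cox11 and Nmnat3 were not called with the 6 sedentary libraries alone (limma adjusted p = 0.0621 and 0.0710).

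Because many of these genes are known targets of ERRs, their promoters were searched for AAGGTCA, the extended half-site that these receptors bind, on both strands of the 300 bases around each RefSeq start (250 before, 50 after). It occurred in 11 of 116 promoters (9.48%, 105 of 129 genes matched by symbol) of the fat oxidation, citric acid cycle and respiratory chain genes tested, in 15 of 262 (5.73%) promoters of genes called higher, in 10 of 224 (4.46%) of genes called lower, in 420 of 12349 (3.40%) of all tested genes and in 1550 of 32851 (4.72%) of all promoters. By list, ATP synthase held it in 5 of 18 promoters, complex I in 3 of 34, the citric acid cycle in 2 of 23, fatty acid oxidation in 1 of 24 (4.17%) and complexes III and IV with cytochrome c in 0 of 17, so that ATP synthase supplied 5 of the 11. The consensus DR1 element of PPARs, a direct repeat of AGGTCA with 1 base between, can overlap the half-site. It occurred in 13 of 32851 (0.0396%) of all promoters and in 3 of 12349 of all tested genes. Of promoters of genes called higher 1 of 262 held it, of genes called lower 0 of 224 and of the oxidative ones 0 of 116. A match this rare cannot show whether such sites are absent from a set of that size. A match is a run of letters, not a bound site, and genes with several annotated starts have several promoters. The following windows show it, with 10 flanking bases on each side, for Ogdh and Perm1, both called higher, for Sox6, called lower, and for Atp5g3, a c subunit of ATP synthase with a difference of 0.44 (limma adjusted p = 0.148). Capitals mark the motif, each window reads 5′ to 3′ on the strand named, and coordinates are GRCm38.p6, from RefSeq.
Ogdh, chr11:6292155-6292181, minus strand: cgcaggcaccAAGGTCAgcgccgtgtc
Perm1, chr4:156215715-156215741, minus strand: ggcattagctAAGGTCAcaccggattc
Atp5g3, chr2:73911362-73911388, plus strand: gaagacgctcAAGGTCActttgtaaca
Sox6, chr7:115846323-115846349, plus strand: tgtccaatggAAGGTCAcactttgaaa
Along the gene, the motif begins 5 bases before 1 of the annotated starts in Ogdh, 202 in Perm1, 52 in Atp5g3 and 199 in Sox6. In Ogdh it runs over that start. The motif was thus read in a gene that was lower as well as in genes that were higher.

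Glycolysis and glycogen genes were called in both directions, at a larger share than the 3.51% of all genes. Of 23 glycolytic genes 2 were higher and 1 was lower (13.0% called), 8 were positive and the median was -0.11, with most of the negative differences uncalled. It was -0.033 with the same nuclear FPKM sum, -0.27 with the same FPKM sum and -0.17 without labelled strNrip1-/- replicate 2. The abundant muscle forms had negative differences that were not called, -0.33 (limma adjusted p = 0.145) for Aldoa and -0.31 (limma adjusted p = 0.201) for the muscle enolase Eno3. A second identifier also carries the symbol Aldoa, so that value is uncertain. Pkm, pyruvate kinase, was at 2413, 2319 and 2243 FPKM in labelled WT and 1809.5, 1895 and 1668 FPKM in labelled strNrip1-/- libraries (log2 fold change -0.38, SE 0.0754, limma adjusted p = 0.0206). The calls in the other direction were Hk1 and Eno1, forms of hexokinase and enolase that predominate outside fast muscle. Hk1 was at 3.14, 3.22 and 3.02 FPKM in labelled WT and 4.65, 5.01 and 6.09 FPKM in labelled strNrip1-/- libraries (log2 fold change 0.66, SE 0.121, limma adjusted p = 0.0138). Eno1 was at 96.3, 91.4 and 94.4 FPKM in labelled WT and 139, 150.1 and 142 FPKM in labelled strNrip1-/- libraries (log2 fold change 0.61, SE 0.116, limma adjusted p = 0.0166). Of 19 glycogen genes 2 were lower and 1 was higher (15.8% called), with a median of -0.23 (-0.14 without labelled strNrip1-/- replicate 1). The phosphorylase Pygm, which releases glucose units, fell from 1676 ± 98.4 to 1289.5 ± 45.2 FPKM (log2 fold change -0.38, SE 0.0732, limma adjusted p = 0.0176), and the glycogen primer Gyg from 258 ± 3.29 to 208 ± 6.84 FPKM (log2 fold change -0.31, SE 0.0573, limma adjusted p = 0.0138). Pkm was not called without labelled WT replicate 1, 2 or 3 (limma adjusted p = 0.0956, 0.0685 and 0.0565) or labelled strNrip1-/- replicate 1 (0.0616). Hk1 was not called without labelled WT replicate 1 or 3 (limma adjusted p = 0.0571 and 0.0565). Eno1 was not called without labelled WT replicate 1, 2 or 3 (limma adjusted p = 0.0594, 0.0644 and 0.0567) or labelled strNrip1-/- replicate 2 (0.0518). Pygm was not called without labelled WT replicate 1 or 2 (limma adjusted p = 0.0902 and 0.0560) or labelled strNrip1-/- replicate 1 (0.0517). Gyg was not called without labelled WT replicate 1 or 3 (limma adjusted p = 0.0680 and 0.0555).

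Pyruvate has several fates, and 3 of 20 genes of this group were higher and none lower. Ldhb, the heart form of lactate dehydrogenase, was at 98.0, 149 and 129.8 FPKM in labelled WT and 251, 264 and 199 FPKM in labelled strNrip1-/- libraries (log2 fold change 0.93, SE 0.177, limma adjusted p = 0.0166), while Ldha, the muscle form, had a negative difference of -0.36 (limma adjusted p = 0.0895). Gpt, which exchanges pyruvate and alanine, rose from 21.3 ± 0.923 to 29.4 ± 1.91 FPKM (log2 fold change 0.45, SE 0.0773, limma adjusted p = 0.00929). Of 10 shuttle genes, which carry reducing power into mitochondria, 2 were higher and 1 was lower. Got1, the cytosolic aspartate aminotransferase, was at 292, 305 and 323 FPKM in labelled WT and 504, 514 and 480.1 FPKM in labelled strNrip1-/- libraries (log2 fold change 0.70, SE 0.0775, limma adjusted p = 8.08e-04), without overlap. Of 20 genes of glucose uptake and insulin signalling, 1 was higher and 1 lower. The higher one, Tbc1d4, a brake on glucose transporter traffic that insulin releases, rose from 3.88 ± 0.973 to 7.75 ± 1.62 FPKM (log2 fold change 0.92, SE 0.185, limma adjusted p = 0.0208). Ldhb was not called without labelled WT replicate 1 or 3 (limma adjusted p = 0.0676 and 0.0514) or labelled strNrip1-/- replicate 1 or 2 (0.0595 and 0.0549). Gpt was not called without labelled WT replicate 1 (limma adjusted p = 0.0503). Tbc1d4 was not called without labelled WT replicate 1 or 2 (limma adjusted p = 0.0896 and 0.0693) or labelled strNrip1-/- replicate 1 or 3 (0.0764 and 0.0658).

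Of 16 phosphocreatine and adenylate genes, 1 was higher and 2 were lower, with a median of 0.025 that ran from -0.056 to 0.019 as single libraries were left out. Ckmt2, the mitochondrial creatine kinase of muscle, was at 657, 801 and 764 FPKM in labelled WT and 1201, 1339.5 and 1170.5 FPKM in labelled strNrip1-/- libraries (log2 fold change 0.74, SE 0.119, limma adjusted p = 0.00710), and cytosolic Ckm, with a difference of -0.35 (limma adjusted p = 0.174), was not called. Ampd1, the AMP deaminase of fast muscle, was at 645, 652 and 619 FPKM in labelled WT and 486, 426 and 440.2 FPKM in labelled strNrip1-/- libraries (log2 fold change -0.50, SE 0.0682, limma adjusted p = 0.00237). Gamt, which completes creatine synthesis, was at 19.1, 23.5 and 17.5 FPKM in labelled WT and 8.01, 9.82 and 9.07 FPKM in labelled strNrip1-/- libraries (log2 fold change -1.11, SE 0.130, limma adjusted p = 0.00109), and each labelled strNrip1-/- library lay below every labelled WT library. These calls held in all fits with 1 library left out.

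Of 22 contractile genes of fast fibres, 5 were called lower and none higher, 20 had a negative difference and the median was -0.34. Actn3, the α-actinin of fast Z-discs, was at 3629, 3108 and 3121 FPKM in labelled WT and 1864, 1696 and 1697 FPKM in labelled strNrip1-/- libraries (log2 fold change -0.90, SE 0.0836, limma adjusted p = 2.52e-04). Mybpc2, fast myosin-binding protein C, was at 1862, 1603 and 1664 FPKM in labelled WT and 1190.0, 1098 and 1196 FPKM in labelled strNrip1-/- libraries (log2 fold change -0.56, SE 0.0792, limma adjusted p = 0.00344). Mylk2, the kinase of the regulatory myosin light chain, was at 451, 401 and 412 FPKM in labelled WT and 288, 259 and 243 FPKM in labelled strNrip1-/- libraries (log2 fold change -0.68, SE 0.1001, limma adjusted p = 0.00423). For these 3 genes the labelled WT libraries all exceeded the labelled strNrip1-/- libraries, and leaving out any 1 library kept the call, although Mybpc2 was not called with the 6 sedentary libraries alone (limma adjusted p = 0.0516). Casq1, the calcium buffer of the fast sarcoplasmic reticulum, fell from 1909.5 ± 46.8 to 1357 ± 117 FPKM (log2 fold change -0.50, SE 0.108, limma adjusted p = 0.0297), and Cacng1, a subunit of the voltage sensor, from 193 ± 6.32 to 142 ± 23.2 FPKM (log2 fold change -0.46, SE 0.0995, limma adjusted p = 0.0291). The myosin heavy chains are near-identical paralogs whose reads are hard to assign, and neither Myh4 of type IIb fibres, -0.35 (limma adjusted p = 0.182), nor Myh1 of type IIx fibres, 0.22 (limma adjusted p = 0.632), was called. Slow-fibre genes had 1 of 20 higher and a median of -0.15, which ran from -0.32 to 0.12 as single libraries were left out. Casq1 was not called without labelled WT replicate 1, 2 or 3 (limma adjusted p = 0.103, 0.1003 and 0.0825) or labelled strNrip1-/- replicate 1 or 3 (0.0974 and 0.0800). Cacng1 was not called without labelled WT replicate 1, 2 or 3 (limma adjusted p = 0.0931, 0.103 and 0.0806) or labelled strNrip1-/- trained replicate 3 (0.0510).

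Calcium handling genes, which pace contraction, were called mainly lower. Of 33 genes 5 were lower, 1 was higher and 26 were negative, with a median of -0.14. Jph2, which holds the reticulum against the T-tubule, was at 310.4, 297 and 301 FPKM in labelled WT and 207, 203 and 210.2 FPKM in labelled strNrip1-/- libraries (log2 fold change -0.55, SE 0.0648, limma adjusted p = 0.00116), and the groups lay far apart for their narrow spread. Camk2a, a calmodulin kinase, fell from 251 ± 26.2 to 184 ± 20.7 FPKM (log2 fold change -0.45, SE 0.0910, limma adjusted p = 0.0210). Camk2a was not called without labelled WT replicate 1 or 3 (limma adjusted p = 0.0912 and 0.0565) or labelled strNrip1-/- replicate 1 (0.0559).

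Pumps and channels of the fibre membrane were called in both directions, 4 higher and 4 lower of 31 (25.8%). The sodium-potassium pump, which restores the resting potential, had calls in both directions. Atp1b2, the β2 subunit of fast fibres, was at 84.5, 75.5 and 75.9 FPKM in labelled WT and 40.9, 37.3 and 42.1 FPKM in labelled strNrip1-/- libraries (log2 fold change -0.96, SE 0.104, limma adjusted p = 7.10e-04). Atp1b1, the β1 subunit, was at 113, 133 and 140.3 FPKM in labelled WT and 216, 178 and 187 FPKM in labelled strNrip1-/- libraries (log2 fold change 0.59, SE 0.113, limma adjusted p = 0.0167). The groups did not overlap in either gene. Kcnab1, a potassium channel β subunit, fell from 1.47 ± 0.0702 to 0.601 ± 0.0996 FPKM (log2 fold change -0.84, SE 0.163, limma adjusted p = 0.0176). Atp1b1 was not called without labelled WT replicate 1 (limma adjusted p = 0.0785) or labelled strNrip1-/- replicate 1 (0.0635). Kcnab1 was not called without labelled WT replicate 1, 2 or 3 (limma adjusted p = 0.0780, 0.0544 and 0.0624) or labelled strNrip1-/- replicate 3 (0.0530).

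Shares of related genes within a library do not depend on how libraries are scaled, and 7 pairs, chosen after their values were seen, were put in this form. All 7 moved toward the gene named first without overlap of the groups, and each had an exact two-sided permutation p of 0.1, the smallest possible with 3 against 3. The pairs were picked and ordered with these values known, so the direction was set by the choice. Neither the count nor the p is independent evidence, and the shares only restate the differences on another scale. The share of Actn2 in the sum of Actn2 and Actn3 was 5.95, 9.11 and 9.01% in labelled WT and 18.2, 19.2 and 19.7% in labelled strNrip1-/- libraries. For Atp1b1 of Atp1b1 and Atp1b2 it was 57.3, 63.7 and 64.9% in labelled WT and 84.1, 82.7 and 81.7% in labelled strNrip1-/- libraries, so that the β2 form lost ground in every labelled strNrip1-/- library. The share of Ldhb with Ldha was 4.28, 6.30 and 6.01% in labelled WT and 13.3, 12.1 and 11.8% in labelled strNrip1-/- libraries. That of Ckmt2 with Ckm went from 4.74% ± 0.515 to 9.56% ± 0.850, that of Eno1 with Eno3 from 1.86% ± 0.111 to 3.46% ± 0.280 and that of Hk1 with Hk2 from 3.40% ± 0.372 to 5.76% ± 0.648 (mean ± SD, n = 3 each). Acsl1 with Acsl3 went from 92.3% ± 2.19 to 97.5% ± 0.146. The gene named second remained the larger part for actinin, lactate dehydrogenase, enolase, creatine kinase and hexokinase in all 6 libraries.

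**Figure D4:**
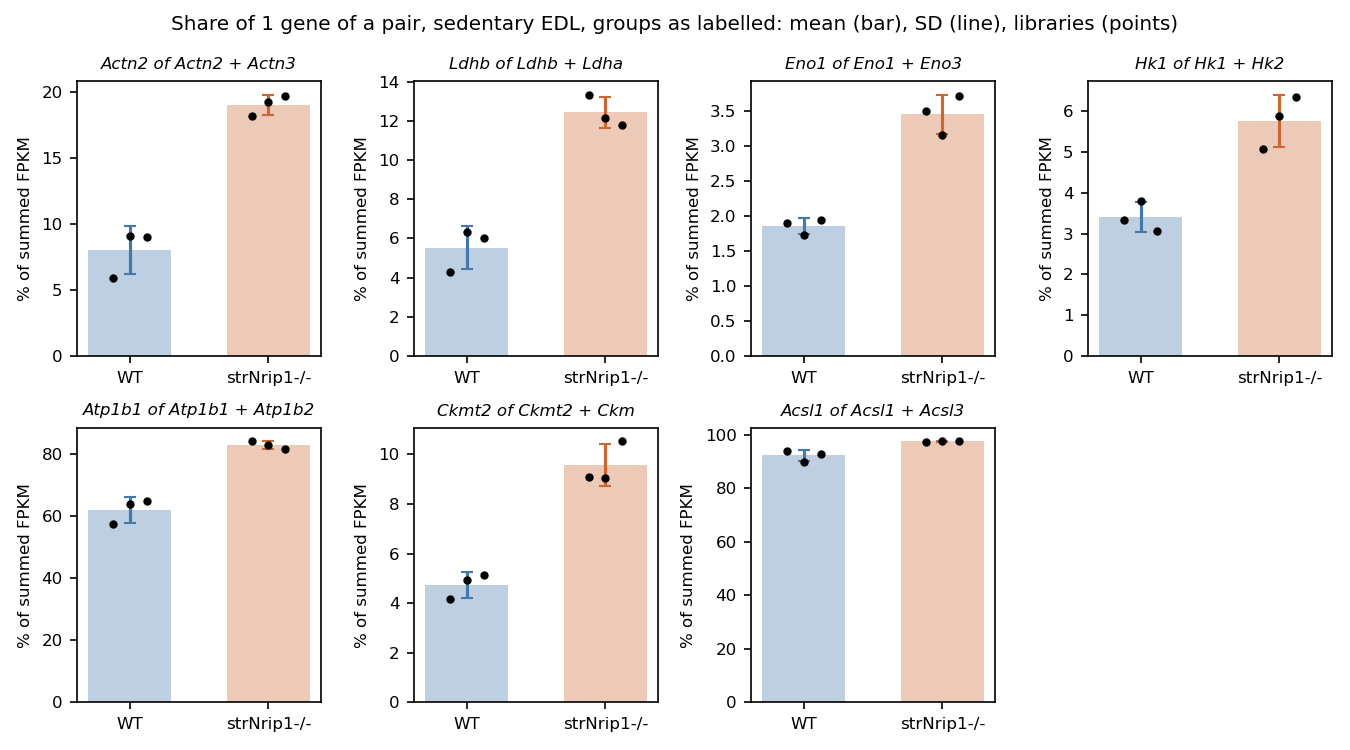
Share of the first gene in the summed FPKM of a pair, in percent, in labelled WT and labelled strNrip1-/- sedentary libraries, with bars at means, lines for SD and points for 3 libraries each. The pairs were chosen and ordered after their values were seen. The groups do not overlap in any of the 7 pairs, and the difference in means is widest for Atp1b1, at 20.8 percentage points.

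Among 68 regulators of fibre type and oxidative capacity, 3 were higher and 6 lower (13.2% called), with a median of -0.035. The 3 that rose belong to the ERR axis. Esrra, encoding ERRα, was at 70.8, 71.3 and 69.8 FPKM in labelled WT and 96.6, 104 and 94.0 FPKM in labelled strNrip1-/- libraries (log2 fold change 0.47, SE 0.0687, limma adjusted p = 0.00416). Esrrb, encoding ERRβ, was at 1.34, 1.43 and 1.24 FPKM in labelled WT and 2.40, 2.34 and 2.36 FPKM in labelled strNrip1-/- libraries (log2 fold change 0.64, SE 0.120, limma adjusted p = 0.0148). Perm1, a muscle gene induced by the PGC-1 coactivators and ERRs, was at 59.1, 64.7 and 65.3 FPKM in labelled WT and 84.2, 89.8 and 96.5 FPKM in labelled strNrip1-/- libraries (log2 fold change 0.51, SE 0.0986, limma adjusted p = 0.0167). Ppargc1a, encoding PGC-1α itself, was not called, at 0.075 (limma adjusted p = 0.846). Prkag3, the γ3 subunit of AMP-activated protein kinase that marks glycolytic muscle, was at 72.2, 60.6 and 61.8 FPKM in labelled WT and 33.3, 24.996 and 31.2 FPKM in labelled strNrip1-/- libraries (log2 fold change -1.11, SE 0.143, limma adjusted p = 0.00181). Mafa, a large Maf transcription factor, was at 55.9, 51.1 and 53.0 FPKM in labelled WT and 34.9, 27.4 and 29.4 FPKM in labelled strNrip1-/- libraries (log2 fold change -0.80, SE 0.124, limma adjusted p = 0.00570). Sox6, a repressor of slow-fibre genes, fell from 14.7 ± 0.836 to 10.4 ± 1.18 FPKM (log2 fold change -0.48, SE 0.105, limma adjusted p = 0.0289). Esrrb was not called without labelled WT replicate 1 or 3 (limma adjusted p = 0.0594 and 0.0594) or labelled strNrip1-/- replicate 1 (0.0513). Perm1 was not called without labelled WT replicate 1 or 2 (limma adjusted p = 0.0829 and 0.0506) or labelled strNrip1-/- replicate 3 (0.0508). Sox6 was not called without labelled WT replicate 1, 2 or 3 (limma adjusted p = 0.118, 0.0977 and 0.0567) or labelled strNrip1-/- replicate 2 or 3 (0.0794 and 0.0520).

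Few vascular genes were called in number, at 7.89% of angiogenic factors and receptors against 3.51% of all genes. Of 38 angiogenic factors and receptors 3 were higher and none lower, with a median of 0.15, and Vegfa, the main endothelial growth factor, had a difference of 0.25 (limma adjusted p = 0.364). All 24 endothelial markers were positive, with a median of 0.19, and limma called none (8 with an unadjusted p under 0.05), Vwf reaching 0.68 (limma adjusted p = 0.0797). Their summed level was 475, 449 and 462 FPKM in labelled WT and 525, 560.4 and 523 FPKM in labelled strNrip1-/- libraries, without overlap, and its part in the angiogenic calls was not tested. Myoglobin (Mb), the oxygen store of red fibres, was at 2099, 3189 and 2430.1 FPKM in labelled WT and 4743, 5621 and 3682 FPKM in labelled strNrip1-/- libraries (log2 fold change 0.86, SE 0.190, limma adjusted p = 0.0314). Fndc5, the precursor of irisin, was at 16.7, 19.1 and 18.5 FPKM in labelled WT and 33.5, 32.1 and 33.6 FPKM in labelled strNrip1-/- libraries (log2 fold change 0.85, SE 0.0778, limma adjusted p = 2.48e-04) and was 1 of 3 higher genes among 24 secreted factors of muscle. Mb was not called without labelled WT replicate 1 or 3 (limma adjusted p = 0.134 and 0.106), labelled strNrip1-/- replicate 1 or 2 (0.0936 and 0.0876) or labelled strNrip1-/- trained replicate 3 (0.0516).

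Of 31 postsynaptic genes of the neuromuscular junction 1 was higher and none lower, with a median of 0.041. Of 8 tested ligands, receptors and synaptic genes that the study names, 6 were higher, with a median of 0.86. The study picked those genes from the same libraries, so their count is no independent evidence of a direction. A further 3 of its members lay below the filter on low values. Of 17 denervation-responsive genes 1 was higher, Dach2, a transcriptional cofactor, at 0.152, 0.285 and 0.191 FPKM in labelled WT and 0.889, 0.907 and 0.727 FPKM in labelled strNrip1-/- libraries (log2 fold change 0.92, SE 0.170, limma adjusted p = 0.0138), still under 1 FPKM in every library. The monocarboxylate transporter gene Slc16a7 was at 0.477, 0.314 and 0.512 FPKM in labelled WT and 3.06, 3.70 and 1.13 FPKM in labelled strNrip1-/- libraries, but its spread left it uncalled (log2 fold change 1.64, SE 0.486, limma adjusted p = 0.102). Of 12 Schwann cell and nerve markers 11 had a negative difference, with a median of -0.27, no limma call and 1 with an unadjusted p under 0.05, and their summed level, 115, 164 and 140.5 FPKM in labelled WT and 121, 111 and 86.6 FPKM in labelled strNrip1-/- libraries, overlapped between groups. Dach2 was not called without labelled WT replicate 1 or 3 (limma adjusted p = 0.0674 and 0.0539) or labelled strNrip1-/- replicate 1 (0.0513).

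Programmes of growth, turnover and stress differed in their share of calls, against 3.51% of all genes. Muscle mass and atrophy genes had 1 of 47 called (2.13%), the proteasome 1 of 34 (2.94%) and the integrated stress response 1 of 22 (4.55%). The circadian clock had 0 of 20, interferon-responsive genes 0 of 24 and collagen and matrix 0 of 44. The medians of these lists lay between -0.073 and 0.11. For the 3 of these lists without a limma call, 0 clock, 5 interferon and 5 matrix genes had an unadjusted p under 0.05, as did 2080 of all 12744. Heat shock and unfolded protein genes had 1 higher and 1 lower of 30, antioxidant genes 2 and 2 of 37, genes of mitochondrial dynamics and mitophagy 2 and 1 of 30, the dystrophin complex 1 and 1 of 20, and carbonic anhydrases and acid-base transporters 1 and 1 of 13. Single members departed from this. Psme4, the proteasome activator PA200, was at 38.7, 35.4 and 36.7 FPKM in labelled WT and 24.7, 23.4 and 26.6 FPKM in labelled strNrip1-/- libraries (log2 fold change -0.56, SE 0.0734, limma adjusted p = 0.00198). Xbp1, a transcription factor of the unfolded protein response, was at 29.7, 32.8 and 30.1 FPKM in labelled WT and 20.4, 23.7 and 22.6 FPKM in labelled strNrip1-/- libraries (log2 fold change -0.47, SE 0.0736, limma adjusted p = 0.00639). Gstm1, a glutathione transferase, was at 163, 159 and 167 FPKM in labelled WT and 125, 118 and 120.5 FPKM in labelled strNrip1-/- libraries (log2 fold change -0.43, SE 0.0681, limma adjusted p = 0.00691). Each was lower in all 3 labelled strNrip1-/- libraries. The mitochondrial protease gene Afg3l2 rose from 30.7 ± 0.859 to 39.2 ± 0.578 FPKM (log2 fold change 0.35, SE 0.0592, limma adjusted p = 0.00930), and the myogenic factor Myf6 fell from 70.1 ± 6.84 to 50.8 ± 2.57 FPKM (log2 fold change -0.46, SE 0.0962, limma adjusted p = 0.0257). Of 23 immediate early genes 1 was lower, 20 were negative and the median was -0.17 (-0.25 without labelled WT replicate 1 and -0.11 without labelled WT replicate 3), against 0.096 in trained libraries. Afg3l2 was not called without labelled WT replicate 1 (limma adjusted p = 0.0533). Myf6 was not called without labelled WT replicate 1 or 2 (limma adjusted p = 0.103 and 0.101) or labelled strNrip1-/- replicate 1 or 3 (0.0819 and 0.0707).

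Most genes tested lay outside the lists, which hold 1336 of the 12744. Of the 447 calls, 128 lay in a list and 319 outside every list. From the calls outside the lists, the 15 largest rises and 15 largest falls were taken among genes whose groups did not overlap. Left out beforehand were pseudogene-like symbols, genes without a mean of 1 FPKM in the higher group and 6 genes at the extremes (Kcnk1, Tmprss13, Ptgds, Cyp4f39, Car3 and Prss30). Of these 30, 22 held their call in every fit with 1 library left out. The 8 others, Crybb1, Amhr2, Gbp10, Crip3, Sytl2, Stum, Casr and Lrp2bp, lost it in 3 to 8 of the 12 fits. Without labelled WT sedentary replicate 1 the limma adjusted p was 0.0674 for Sytl2, 0.0783 for Lrp2bp, 0.0924 for Crybb1, 0.142 for Crip3 and 0.152 for Stum and Casr, the highest of each gene. Casr and Gbp10 lost the call in 8 fits, Crip3 and Stum in 7, Lrp2bp in 5 and Crybb1 and Sytl2 in 3. Gbp10 reached 0.137 without labelled WT sedentary replicate 2. Every fit without 1 of the sedentary libraries ended the call of at least 1 of them.

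The largest rise of the 30 was that of Slc15a5, of the peptide transporter family, at 1.05, 0.966 and 1.04 FPKM in labelled WT and 6.95, 13.2 and 13.1 FPKM in labelled strNrip1-/- libraries (log2 fold change 2.88, SE 0.306, limma adjusted p = 6.77e-04). Slc38a10, of an amino acid transporter family, was at 19.0, 18.8 and 18.8 FPKM in labelled WT and 71.1, 75.7 and 62.6 FPKM in labelled strNrip1-/- libraries (log2 fold change 1.86, SE 0.0770, limma adjusted p = 3.61e-07), and its narrow spread gave the smallest adjusted p of the 30. Cntfr, the receptor subunit for ciliary neurotrophic factor, was at 20.1, 21.8 and 18.9 FPKM in labelled WT and 66.7, 74.6 and 70.4 FPKM in labelled strNrip1-/- libraries (log2 fold change 1.77, SE 0.205, limma adjusted p = 0.00106). Igsf8, an immunoglobulin-family partner of tetraspanins, was at 5.17, 7.70 and 5.60 FPKM in labelled WT and 25.5, 23.4 and 17.8 FPKM in labelled strNrip1-/- libraries (log2 fold change 1.77, SE 0.149, limma adjusted p = 1.26e-04). Kcne1l, a small potassium channel subunit, was at 1.63, 1.92 and 1.17 FPKM in labelled WT and 4.30, 5.47 and 5.66 FPKM in labelled strNrip1-/- libraries (log2 fold change 1.45, SE 0.161, limma adjusted p = 8.47e-04). Their groups did not overlap, as the choice of the 30 genes required. Intracellular proteins were among the rises too. Wfs1, wolframin of the endoplasmic reticulum, was at 24.5, 29.5 and 27.4 FPKM in labelled WT and 75.6, 75.8 and 73.0 FPKM in labelled strNrip1-/- libraries (log2 fold change 1.45, SE 0.0874, limma adjusted p = 1.05e-05). Mib1, a ubiquitin ligase that activates Notch ligands, was at 17.4, 17.5 and 19.2 FPKM in labelled WT and 53.4, 58.8 and 56.2 FPKM in labelled strNrip1-/- libraries (log2 fold change 1.61, SE 0.165, limma adjusted p = 5.18e-04). Next in size after Slc15a5 were Tmem37, described below, and Cabcoco1 and BC048679. Genes of lower level were Cabcoco1, BC048679, Pcnx2, Tecta, Lrrc27 and Clmp, which rose by 2.13, 2.07, 1.62, 1.53, 1.47 and 1.34 on the log2 scale, with limma adjusted p between 0.000615 and 0.00965. The pseudocount of 0.5 understates changes at such levels.

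Among the falls, Cib2, a calcium- and integrin-binding protein, was at 73.8, 69.5 and 64.2 FPKM in labelled WT and 30.2, 33.3 and 26.8 FPKM in labelled strNrip1-/- libraries (log2 fold change -1.19, SE 0.0947, limma adjusted p = 7.94e-05). Smyd2, a lysine methyltransferase, was at 76.0, 81.2 and 71.9 FPKM in labelled WT and 35.6, 42.7 and 29.7 FPKM in labelled strNrip1-/- libraries (log2 fold change -1.09, SE 0.147, limma adjusted p = 0.00237). Tpbgl was at 30.03, 27.3 and 28.7 FPKM in labelled WT and 11.1, 12.01 and 13.8 FPKM in labelled strNrip1-/- libraries (log2 fold change -1.195, SE 0.0935, limma adjusted p = 7.41e-05). The groups of these 3 genes lay far apart. Syt3, a synaptotagmin, was at 3.07, 2.57 and 2.60 FPKM in labelled WT and 0.980, 0.902 and 0.479 FPKM in labelled strNrip1-/- libraries (log2 fold change -1.36, SE 0.209, limma adjusted p = 0.00563), and Kazald1, a secreted protein, at 16.8, 17.8 and 15.9 FPKM in labelled WT and 8.88, 8.90 and 5.61 FPKM in labelled strNrip1-/- libraries (log2 fold change -1.09, SE 0.161, limma adjusted p = 0.00432). The chemokine Ccl25 and Mfap3l fell by 1.14 and 1.05 on the log2 scale (limma adjusted p = 0.00187 and 0.00423).

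Some called genes were neighbours. Among 12701 pairs of adjacent tested genes, 28 had both members called, 20 in the same direction, of which 16 were both higher. Of all genes tested 3.51% were called, and 54.8% of calls were higher. Whether the pair counts exceed what these shares alone would give was not tested. Polr1a, the large subunit of RNA polymerase I, starts 303 bases from Ptcd3 on chromosome 6 and lies next to St3gal5, a ganglioside sialyltransferase. Polr1a was at 8.43, 7.06 and 7.73 FPKM in labelled WT and 16.4, 14.5 and 18.3 FPKM in labelled strNrip1-/- libraries (log2 fold change 1.034, SE 0.125, limma adjusted p = 0.00124), and St3gal5 at 18.2, 19.98 and 20.9 FPKM in labelled WT and 41.7, 47.2 and 47.9 FPKM in labelled strNrip1-/- libraries (log2 fold change 1.19, SE 0.140, limma adjusted p = 0.00112). On chromosome 4, Eif3i, an initiation factor subunit, and Tmem234 are 20 bases apart. Eif3i was at 85.7, 88.9 and 89.1 FPKM in labelled WT and 145, 208 and 147 FPKM in labelled strNrip1-/- libraries (log2 fold change 0.90, SE 0.113, limma adjusted p = 0.00165), and Tmem234 at 41.7, 50.1 and 48.0 FPKM in labelled WT and 88.8, 149 and 104 FPKM in labelled strNrip1-/- libraries (log2 fold change 1.25, SE 0.159, limma adjusted p = 0.00171). On chromosome 1, Sctr, the secretin receptor, was at 1.18, 0.891 and 1.14 FPKM in labelled WT and 2.89, 4.77 and 2.29 FPKM in labelled strNrip1-/- libraries (log2 fold change 1.23, SE 0.212, limma adjusted p = 0.00965), and Tmem37, a calcium channel γ-like protein 3841 bases away, at 7.75, 9.86 and 9.25 FPKM in labelled WT and 39.0, 57.5 and 37.1 FPKM in labelled strNrip1-/- libraries (log2 fold change 2.23, SE 0.169, limma adjusted p = 6.75e-05). The libraries keep no strand, so reads from overlapping or abutting genes cannot be told apart.

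Markers of other cell types were mostly uncalled. Limma called no marker of fibroblasts (15 tested, 2 with an unadjusted p under 0.05), macrophages and inflammation (20, 1), blood (7, 0), tendon (12, 3) or epidermis (5, 1), with medians of 0.079, 0.10, 0.095, 0.31 and -0.011. Of 15 pericyte and smooth muscle markers 1 was lower, as was 1 of 12 adipocyte markers. Prg4, of joint lining and tendon sheath, was at 15.7, 16.9 and 14.7 FPKM in labelled WT and 14.8, 107 and 20.3 FPKM in labelled strNrip1-/- libraries, high in labelled strNrip1-/- replicate 2 alone, the library in which the summed mitochondrial and cytosolic ribosome genes were also highest. Its part in those values was not tested.

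Set beside the same contrast in trained EDL (6 other libraries), no gene passed the genotype by training interaction (limma, adjusted p under 0.05, 0% of all tested), with a smallest adjusted p of 0.335 and 989 genes under an unadjusted p of 0.05. Among the 447 called genes 72 were under that unadjusted level. These genes were selected by their sedentary difference, which is part of the interaction, so the 2 counts cannot be set against each other. Tut4, which adds uridines to RNA, and Amhr2, the receptor of anti-Müllerian hormone, were among the genes that shared the smallest adjusted p. In sedentary EDL Tut4 was at 7.36, 5.72 and 9.07 FPKM in labelled WT and 2.59, 3.41 and 3.03 FPKM in labelled strNrip1-/- libraries (log2 fold change -1.15, SE 0.179, limma adjusted p = 0.00583), and in trained EDL at 4.51, 4.48 and 5.90 FPKM in labelled WT and 5.93, 8.49 and 7.37 FPKM in labelled strNrip1-/- trained libraries, an interaction of -1.66 (SE 0.253, limma unadjusted p = 3.84e-05, limma adjusted p = 0.335). Amhr2 was at 2.93, 2.38 and 3.82 FPKM in labelled WT and 0.670, 0.853 and 0.347 FPKM in labelled strNrip1-/- libraries (log2 fold change -1.66, SE 0.320, limma adjusted p = 0.0167) and at 0.874, 0.247 and 1.19 FPKM in labelled WT and 1.48, 1.36 and 2.74 FPKM in labelled strNrip1-/- trained libraries, an interaction of -2.59 (SE 0.452, limma unadjusted p = 1.25e-04, limma adjusted p = 0.335). Both were lower in every labelled strNrip1-/- library when sedentary and higher in each when trained, and neither interaction passed the correction. In trained EDL Actn3 was at 3063, 3076 and 3213 FPKM in labelled WT and 1832, 1962 and 1769 FPKM in labelled strNrip1-/- trained libraries, with an interaction of -0.15 (SE 0.118, limma unadjusted p = 0.218, limma adjusted p = 0.780). Amhr2 was not called without labelled WT replicate 1 or 3 (limma adjusted p = 0.0660 and 0.0709) or labelled strNrip1-/- replicate 3 (0.0538).

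The scale of the libraries decided part of the calls of small size. When all libraries had the same FPKM sum, the rises of Acsl1, Ogdh, Hibch, Hspd1, Hspa9, Mrps2, Mfn1, Cluh, Abcb8, Nmnat3, Hk1, Gpt, Tbc1d4, Atp1b1, Perm1 and Afg3l2 no longer passed limma's threshold, and when the nuclear sum was the same, the falls of Gyg, Camk2a, Sox6, Psme4, Gstm1 and Myf6 did not. Quantile normalization ended the calls of Gyg and Camk2a. Fabp3, Cd36, Cpt2, Hadhb, Etfdh, Suclg2, Oxct1, Got1, Ckmt2, Actn3, Jph2, Atp1b2, Prkag3 and Esrra were called on every scale. Relative to the median of all genes, fat oxidation genes had a median of 0.35 with the same FPKM sum and 0.37 with the same nuclear sum. Fast-fibre genes had -0.36 and -0.33.

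**Figure D5:**
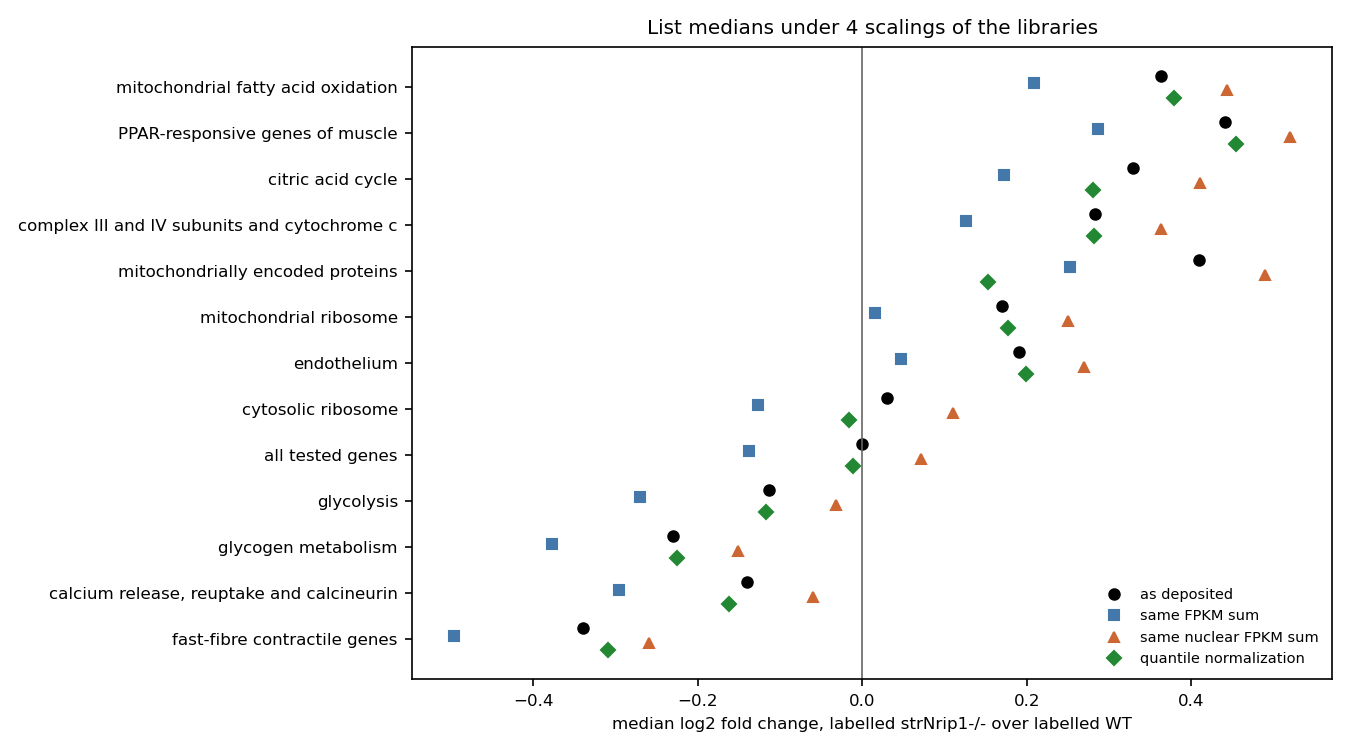
Median log2 fold change of 12 lists and of all tested genes with the libraries as deposited, rescaled to the same FPKM sum, rescaled to the same nuclear FPKM sum or quantile normalized. PPAR-responsive genes are highest and fast-fibre genes lowest on every scale, mitochondrially encoded proteins fall to 0.15 under quantile normalization, and the all-gene median moves between −0.14 and 0.071.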

How the data were processed

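RNA was taken from EDL muscle of 12 libraries, made with a kit that keeps no strand, of which the 6 sedentary ones, 3 per labelled genotype, are reported. Per the study's methods and the labels, the authors quantified reads with Salmon 1.10.2 against mm10, summarised transcripts to genes with tximport, and deposited FPKM values of 17752 genes, with 8 columns of DESeq2 1.44.0 comparisons (fold changes and adjusted p-values) that were not used. FPKM are not counts, and how the deposited values were scaled beyond this is not given in the sources used here.

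Values were analysed as log2(FPKM + 0.5) for the 12744 genes whose mean over the 12 libraries reached 0.5 FPKM. Fold changes are on that scale, which understates changes of low genes. Group means of all 12 libraries were fitted with limma 3.58.1 in R 4.3.3 (trended variance, two-sided, Benjamini-Hochberg over all tested genes), and calls required an adjusted p under 0.05 and a fold above 1.2, the thresholds of the study's methods. Single values per library were compared with exact permutation tests (scipy 1.17.1). The scripts were tested on simulated data. Of the low values, 99.11 to 99.78% per library were whole fragments within 0.15, at the scale that was taken as the depth. Replicates shared no identical value above 0, and their log2 values correlated at 0.986 to 0.992 across genes, which are not independent replicates.

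The gene lists and the genes named were chosen with earlier results of these data known. Named genes are Nrip1, key members marked in each list, and up to 8 further called and 4 uncalled members per list (by adjusted p and mean FPKM). Outside the lists they are the 15 largest rises and 15 largest falls among protein-coding called genes that reach 1 FPKM and whose groups do not overlap. Adjacent genes, gene pairs and some mitochondrial genes were chosen after their values were seen, as the text says. Some genes that this rule takes in are not reported here. Alternatives were pseudocounts of 0.1 and 1, no filter or one of 5 FPKM, equal FPKM sums over all or nuclear genes, quantile normalization, the sedentary libraries alone, a replicate block, no variance trend and leaving out each library. Promoter sequences are RefSeq's for GRCm38.p6, and gene positions are from GENCODE M21.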

Additional observations from a re-analysis of the deposited data

How the results depend on the processing

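Under the alternatives, genes named or held for naming kept their direction and side of limma's threshold in 2630 comparisons with the reported value, gained a call in 27 and lost one in 220. The direction turned for 2 uncalled genes (log2 fold change, Cpt1b, of -0.00421 and log2 fold change, Ppargc1a, of -0.064) when every library had the same FPKM sum. List medians stayed within their spread in 1132 cases and moved in 121. The within-library shares of gene pairs, which were chosen and ordered after their values were seen, moved by less than their spread in all 42. For these shares, left-out libraries were an alternative added after seeing the data. With the same FPKM sum 121 genes were higher and 531 lower, and with the same nuclear sum 397 were higher and 83 lower. The 6 sedentary libraries fitted alone gave 166 calls, 106 higher and 60 lower, and there Acsl1, Acsl3, Acadm, Etfa, Bckdha, Hibch, Coq8a, Coq6, Cox5a, Atp5a1, Hspd1, Hspa9, Cox11, Nmnat3, Hk1, Pkm, Pygm, Gyg, Ldhb, Gpt, Tbc1d4, Mybpc2, Casq1, Cacng1, Camk2a, Atp1b1, Esrrb, Sox6, Mb, Dach2, Xbp1, Afg3l2, Myf6, Crybb1, Crip3, Sytl2, Stum, Casr and Sctr were the called genes of the report that were not called. This fit has fewer libraries to estimate the spread. Leaving out 1 library gave 163 to 478 calls, 104 to 268 higher and 59 to 210 lower, and 0 to 1 genes in the interaction, the 1 without labelled WT trained replicate 3. Replicate numbers did not pair the libraries (correlations of same-numbered deviations -0.00998, 0.162 and 0.112), and a replicate block gave 441 calls, 382 of them shared, with Crip3, Stum and Casr no longer called (limma adjusted p = 0.0651, 0.0624 and 0.0546). Without the variance trend there were 338, and Cacng1, Myf6 and Gbp10 were not called. Without the filter Mb, Gbp10, Crip3, Stum and Casr were not called. For genes near the floor of 3 fragments, under about 0.0748 FPKM on 2 kb, differences are not detectable at this depth.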

Other observations

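Nnt, the nicotinamide nucleotide transhydrogenase of the inner mitochondrial membrane, part of which C57BL/6J mice lack, appears under 2 identifiers. Under ENSMUSG00000116207 it was at 3.62 FPKM in labelled strNrip1-/- sedentary replicate 1, 2.75 FPKM in labelled strNrip1-/- sedentary replicate 3 and 3.38 FPKM in labelled WT trained replicate 1, and was listed at 0 in the other 9 libraries. Under ENSMUSG00000025453 it was at 6.71, 9.17 and 8.56 FPKM in labelled WT and 9.33, 11.7 and 9.91 FPKM in labelled strNrip1-/- sedentary libraries, without overlap. Its trained values were 5.43, 10.6 and 9.24 FPKM in labelled WT and 16.0, 17.6 and 18.4 FPKM in labelled strNrip1-/- libraries. The values of either identifier are uncertain, since gene-level quantification can split reads between near-identical copies.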
